A study of Mus musculus with 6 samples.

Results

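The secreted Wnt antagonists are proteins released from cells that block Wnt signaling outside the cell, and 8 of their genes were read by symbol from the counts of subcutaneous white adipose tissue (scWAT). These were the secreted Frizzled-related proteins Sfrp1, Sfrp2, Sfrp4, Sfrp5 and Frzb, the Dickkopf proteins Dkk2 and Dkk3, and Wif1, 8 of 55401 genes in the files. Bulk RNA-seq was done on scWAT of 8-week-old male mice kept at room temperature, with 3 libraries labelled WT and 3 labelled YT-AKO. The YT-AKO mice carried floxed alleles of both genes (Yap fl/fl and Taz fl/fl) with Adipoq Cre, which deletes them in mature adipocytes without an inducer. The control mice, termed YT-FF in the study and below, carry the floxed alleles by that name, while their label gives only WT. The Cre is driven from the Adipoq gene, so that the other cells of the tissue keep both genes. In bulk tissue, fewer cells of a type and less RNA per cell cannot be told apart.

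Wnt proteins bind a Frizzled receptor together with the co-receptor Lrp5 or Lrp6 and stop the destruction of beta-catenin, which then turns on genes with TCF/LEF factors. Secreted Frizzled-related proteins and Wif1 bind the Wnt proteins themselves, whereas the classic Dickkopf proteins bind Lrp5 and Lrp6. In fat, Wnt signaling through beta-catenin holds preadipocytes back from differentiation. Sfrp5 is an adipokine whose expression rises in mice as adipocytes enlarge, together with the imprinted gene Mest.

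The libraries held 17740987 to 21838493 counted fragments, so that 3 counts, the limit that a count of 0 allows, corresponded to 0.128 to 0.177 CPM (the count as a share of all counts in a library) after scaling by TMM, a factor that sets the bulk of genes equal between libraries. Of the targeted genes, Yap1 was lower in YT-AKO (log2 fold change -0.98, SE 0.167, adjusted p = 0.0179). Wwtr1, the gene of TAZ, was higher (0.89, SE 0.182, adjusted p = 0.0220), but not called with library totals alone as the scale (0.59, adjusted p = 0.0798). Without YT-FF library 1 or library 2, neither gene was called (adjusted p of 0.110 to 0.123), and only 0 and 2 genes in all were. With same-numbered libraries fitted as a block, neither was called (edgeR adjusted p = 0.0584 and 0.0618), and 33 genes in all were. Counts were summed over each whole gene, so they do not read the deleted exons alone, and the fitted change of Wwtr1 went against the label. All directions below are therefore between the libraries labelled YT-FF and those labelled YT-AKO. The adipocyte markers summed to 14100 to 19200 TPM (the share of all transcripts, per length) in YT-FF and 16100 to 18400 in YT-AKO. In TMM-scaled counts, 7 of the 8 had a log2 fold change above 0. Fabp4 (1.34, edgeR adjusted p = 0.0475) and Lipe (0.84, 0.0477) were called higher, as were 12.6% of all tested genes. Both overlapped between the groups in TPM. So did Wwtr1, whose lowest value was in YT-AKO library 2 (48.7 TPM). Within each library the deviation from the mean of all libraries moved with gene length, with Spearman correlations across genes of 0.277 to 0.333 in YT-FF and of -0.367 to -0.200 in YT-AKO. Library 2 of YT-AKO had the lowest TMM factor, 0.777 against 0.954 to 1.16 in the others.

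The promoters of Sfrp5, Sfrp2 and Dkk2 are shown because these 3 members share their start site between the files and RefSeq (GRCm38.p6), and because they stand for the adipokine of the group, its most abundant member and a Dickkopf. Each is the 250 bases before the start site, 5′ to 3′ on the strand of the gene, with matches to a GC box or a TATA box in capitals. They lie at chr19:42202253-42202502 (minus strand) for Sfrp5, chr3:83766071-83766320 (plus strand) for Sfrp2 and chr3:132085042-132085291 (plus strand) for Dkk2.
Sfrp5: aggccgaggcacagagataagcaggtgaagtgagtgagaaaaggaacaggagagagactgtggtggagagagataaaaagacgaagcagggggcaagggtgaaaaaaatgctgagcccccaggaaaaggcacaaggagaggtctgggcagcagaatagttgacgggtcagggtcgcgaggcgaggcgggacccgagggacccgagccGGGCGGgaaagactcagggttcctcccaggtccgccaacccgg
Sfrp2: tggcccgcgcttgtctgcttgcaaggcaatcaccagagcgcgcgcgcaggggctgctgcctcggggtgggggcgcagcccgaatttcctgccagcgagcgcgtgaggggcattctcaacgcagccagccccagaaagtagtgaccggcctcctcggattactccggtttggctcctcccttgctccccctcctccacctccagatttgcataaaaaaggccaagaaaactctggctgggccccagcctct
Dkk2: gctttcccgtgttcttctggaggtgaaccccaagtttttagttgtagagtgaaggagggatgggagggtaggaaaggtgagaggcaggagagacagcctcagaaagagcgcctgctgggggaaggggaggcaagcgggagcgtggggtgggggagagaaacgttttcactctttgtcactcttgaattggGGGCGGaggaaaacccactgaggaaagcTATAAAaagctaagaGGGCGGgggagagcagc
Entries were found for 5 of 8 members, these 3 with Frzb and Wif1, and 4 motifs were searched on both strands in the 250 bases. The TEAD motif GGAATG, of the factors that YAP and TAZ bind, was in 0 of 5 and in 12.6% of 32851 promoters. The TCF/LEF motif CTTTGA was in 1 of 5, Frzb, and in 13.8% of all. The GC box GGGCGG was in 4 of 5, all but Sfrp2, against 32.7% of all, and TATAAA was in Dkk2 and Wif1 against 12.4% of all. These motifs do not overlap one another in the 3 windows shown, and a match or its absence describes only the letters in this window.

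None of the 8 antagonists passed the test between the genotypes. Sfrp1 (1.52-fold) had the highest fitted ratio of YT-AKO to YT-FF, and Frzb (0.550-fold) and Sfrp5 (0.629-fold) the lowest, with errors that reached past no change in each. All 8 genes passed the filter on low counts, and edgeR's quasi-likelihood test called 0 of 8 at an adjusted p under 0.05, where it called 21.6% of all 16807 tested genes (12.6% higher and 9.01% lower in YT-AKO). With the adjusted p required to be under 0.01 and the change to be over 1 log2 unit, the share was 0 of 8 against 0.125% of all. At an unadjusted p under 0.05 there were also 0 of 8, against 40.8% of all. DESeq2 called 0 of 8 against 26.8% of all genes, with Sfrp5 alone under 0.05 unadjusted, and limma-voom called 0 of 8, against 21.6%, with none under 0.05 unadjusted. The CPM of the groups overlapped in all 8 members (0 of 8 without overlap, against 51.5% of all tested genes). The fitted log2 fold change was above 0 for 5 members and below 0 for 3, with a median of 0.0932 beside -0.0205 over all tested genes. Of the 3636 genes called, 2121 were higher and 1515 lower in YT-AKO. This split was 1137 higher and 2828 lower with library totals alone as the scale, and 1692 and 763 after a correction for gene length in each library.

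**Figure D1:**
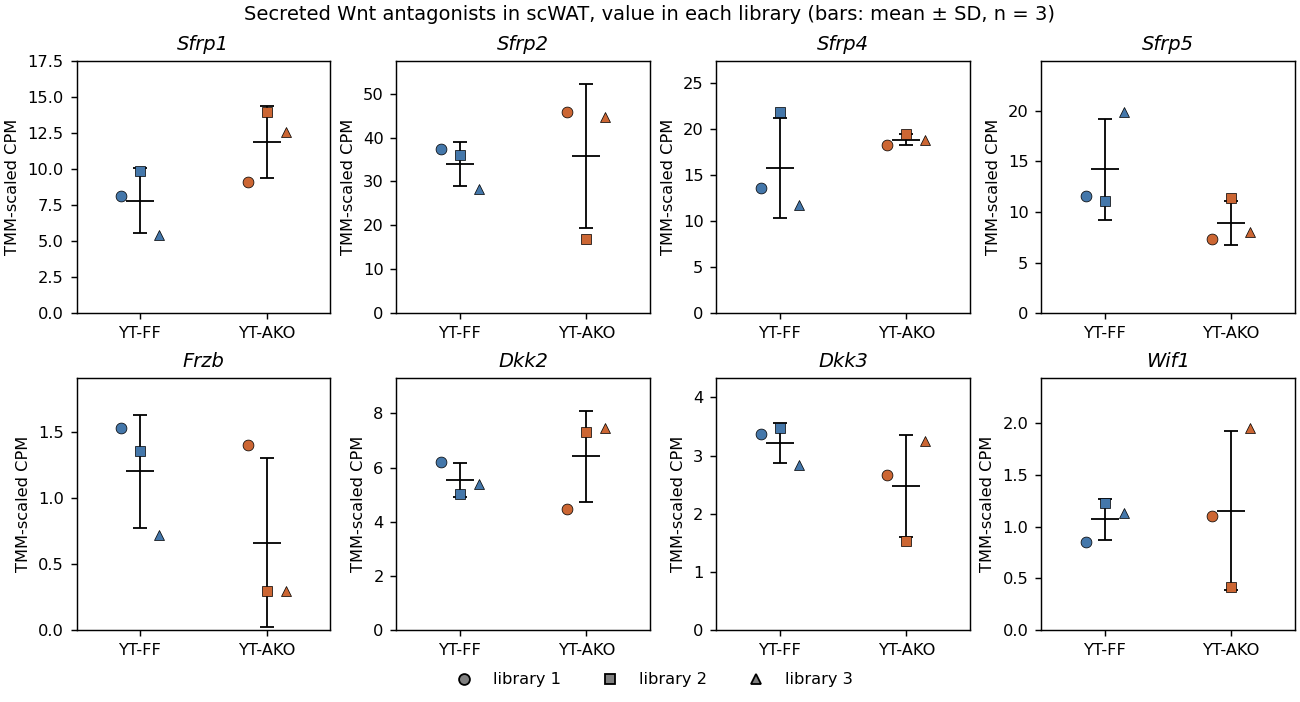
TMM-scaled CPM (y axis, from 0 and set for each gene) of the 8 antagonists in the 3 YT-FF and 3 YT-AKO libraries, each point 1 library, with the mean and SD. The groups overlap in all 8 panels, and Sfrp2 spans 16.9 to 45.9 CPM within YT-AKO.

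Sfrp1 (ENSMUSG00000031548, GRCm38 chr8:23411502-23449632, plus strand) binds Wnt proteins through a domain like that of the Frizzled receptors. It was measured at 8.14, 9.89 and 5.46 CPM in YT-FF libraries 1, 2 and 3, and at 9.13, 14.0 and 12.6 CPM in YT-AKO. The groups overlapped through YT-FF library 2, which lay above YT-AKO library 1. The means were 7.83 ± 2.23 and 11.9 ± 2.52 CPM (SD, n = 3 each). Its log2 fold change was 0.60 (SE 0.283, 95% interval -0.05 to 1.26, edgeR adjusted p = 0.147), so the data allow anything from nearly no difference to a 2.39-fold higher level in YT-AKO. It stayed above 0 in every alternative fit of the counts and without each library, between 0.25 and 0.80, and passed in none. In TPM the direction was not kept: the groups overlapped, with means of 6.86 ± 2.23 in YT-FF and 6.42 ± 1.22 in YT-AKO (SD, n = 3 each).

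Sfrp2 (ENSMUSG00000027996, chr3:83766321-83774316, plus strand), which fibroblasts secrete into the matrix, was the most abundant member per length. It stood at 37.5, 36.1 and 28.3 CPM in YT-FF and at 45.9, 16.9 and 44.7 CPM in YT-AKO. YT-AKO library 2 was the lowest of the 6 and the other YT-AKO libraries the highest. The spread within YT-AKO was 2.72-fold, beyond the counting error: 286 counts in library 2 (95% Poisson interval 254 to 321, for counting error only) against 790 (736 to 847) in library 1. Between the genotypes the log2 fold change was 0.08 (SE 0.355, interval -0.74 to 0.90, adjusted p = 0.884). Its direction rested on single libraries: it was 0.41 without YT-AKO library 2, with an adjusted p of 0.0600, and -0.14 without YT-AKO library 1. Of its exon bases, 16.1% also belong to Gm26771, where the counting could not assign a fragment.

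The summed fibroblast and progenitor markers were also lowest in YT-AKO library 2, but not each of them. The 11 markers, all tested, summed to 1994, 2645 and 2042 TPM in YT-FF libraries 1, 2 and 3, an order that Sfrp2 (67.0, 66.2 and 47.4 TPM) did not share. In YT-AKO they summed to 2582, 1383 and 2318 TPM. Col1a1 (711 CPM) and Pdgfra (38.3 CPM) were lowest of all libraries in YT-AKO library 2. In TMM-scaled CPM, Pi16 (384 CPM), Ly6a (363 CPM) and Mfap5 (74.1 CPM) were highest of all libraries there. On that scale Cd34 (153 CPM) was level with YT-AKO library 1 (152 CPM). In TPM, the scale of the sum, Pi16 (106 TPM) and Cd34 (36.7 TPM) were lowest of all libraries there. Ly6a (528 TPM) and Mfap5 (36.2 TPM) were then neither highest nor lowest. Of the 11, Pi16, Ly6a, Lum and Mfap5 were called higher in YT-AKO and Dpp4 lower, while none was at 0. Of all tested genes, 21.6% were called. In TPM the groups overlapped in each of Pi16, Ly6a, Lum and Mfap5. The part of these markers in the level of Sfrp2 was not tested.

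Sfrp4 (ENSMUSG00000021319, chr13:19623104-19632994, plus strand), another Wnt-binding protein of the family, had the narrowest range in YT-AKO of the members in TMM-scaled CPM, though not in TPM. It was at 13.6, 21.9 and 11.8 CPM in YT-FF and at 18.3, 19.5 and 18.8 CPM in YT-AKO. The 3 YT-AKO values fell inside the YT-FF range. Its log2 fold change was 0.26 (SE 0.250, interval -0.32 to 0.83, adjusted p = 0.466), and with library totals alone it turned to -0.08.

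Sfrp5 (ENSMUSG00000018822, chr19:42197971-42202252, minus strand), the adipokine of the group, was at 11.6, 11.1 and 19.9 CPM in YT-FF and at 7.38, 11.4 and 7.98 CPM in YT-AKO. YT-AKO library 2 lay between the YT-FF values, and the other YT-AKO libraries lay below all of them. The means were 14.2 ± 4.94 and 8.91 ± 2.16 CPM (SD, n = 3 each), and the log2 fold change was -0.67 (SE 0.299, interval -1.36 to 0.02, adjusted p = 0.133). The call depended on the processing and on 1 library. Sfrp5 passed without YT-AKO library 2 (-0.88, adjusted p = 0.0456), where 30.8% of genes passed, and without it and with the length correction (-1.11, adjusted p = 0.0236), where 23.5% passed. It also passed after the gene length correction (-1.0, adjusted p = 0.0458), where 14.6% of genes passed, and with library totals alone (-1.01, adjusted p = 0.0342), where 23.6% passed. The totals move the median of all genes to -0.34, and relative to that median Sfrp5 was at -0.66, against -0.65 in the main fit. Without YT-FF library 3 the change was -0.34 with an adjusted p of 0.390. The direction remained below 0 in every alternative.

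Per length and relative to the sum of all transcripts, Sfrp5 was 23.5, 23.0 and 37.7 TPM in YT-FF and 10.8, 10.5 and 11.4 TPM in YT-AKO. On this scale the groups did not overlap, with means of 28.1 ± 8.37 and 10.9 ± 0.465 TPM (SD, n = 3 each). Of all tested genes, 54.5% had each YT-AKO library below each YT-FF library in TPM, against 25.8% in TMM-scaled CPM, so a TPM that is lower throughout was common among genes. Dkk3 was the other member below throughout on that scale.

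Frzb (ENSMUSG00000027004, chr2:80411970-80447625, minus strand), also called Sfrp3 and known from cartilage, was the member nearest to the limit of detection. YT-FF libraries 1, 2 and 3 held 36, 31 and 14 counts (1.53, 1.36 and 0.721 CPM) and those of YT-AKO 24, 5 and 5 (1.40, 0.295 and 0.295 CPM). YT-AKO libraries 2 and 3 were the lowest, and library 1 stood among the YT-FF values. The log2 fold change of -0.86 had the widest error of the members (SE 0.693, interval -2.47 to 0.74, adjusted p = 0.374). It moved to -2.0 without YT-AKO library 1 and -0.51 without library 3. Within YT-AKO the counts differed beyond counting error, at 24 (95% Poisson interval 15.4 to 35.7) against 5 (1.62 to 11.7).

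Of the Dickkopf genes, Dkk2 (ENSMUSG00000028031, chr3:132085292-132180304, plus strand) encodes a ligand of Lrp5 and Lrp6. It was at 6.22, 5.01 and 5.41 CPM in YT-FF and at 4.48, 7.31 and 7.45 CPM in YT-AKO, where library 1 was below and the others above all YT-FF libraries. The log2 fold change was 0.21 (SE 0.274, interval -0.43 to 0.84, adjusted p = 0.590), and it was -0.13 with library totals alone.

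Dkk3 (ENSMUSG00000030772, chr7:112116017-112159057, minus strand) is the divergent Dickkopf, whose action on Wnt signaling differs from that of the others. It was at 3.37, 3.47 and 2.83 CPM in YT-FF and at 2.67, 1.53 and 3.25 CPM in YT-AKO. Library 2 of YT-AKO was again the lowest, with 26 counts against 46 to 79 in the other 5 libraries. The log2 fold change was -0.37 (SE 0.353, interval -1.19 to 0.44, adjusted p = 0.449), and -0.13 without that library.

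Wif1 (ENSMUSG00000020218, chr10:121033960-121100650, plus strand) binds Wnt proteins through a WIF domain and is no relative of the Frizzled-related proteins. Its counts were 20, 28 and 22 in the YT-FF libraries (0.852, 1.23 and 1.13 CPM) and 19, 7 and 33 in those of YT-AKO (1.10, 0.413 and 1.95 CPM). The YT-AKO libraries held both the lowest and the highest value. The log2 fold change of 0.11 (SE 0.573, interval -1.22 to 1.44, adjusted p = 0.899) turned to -0.49 without YT-AKO library 3 and rose to 0.51 without library 2. Sfrp2, Frzb, Dkk3 and Wif1 thus all had their lowest value in YT-AKO library 2, with Frzb as low in library 3.

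**Figure D2:**
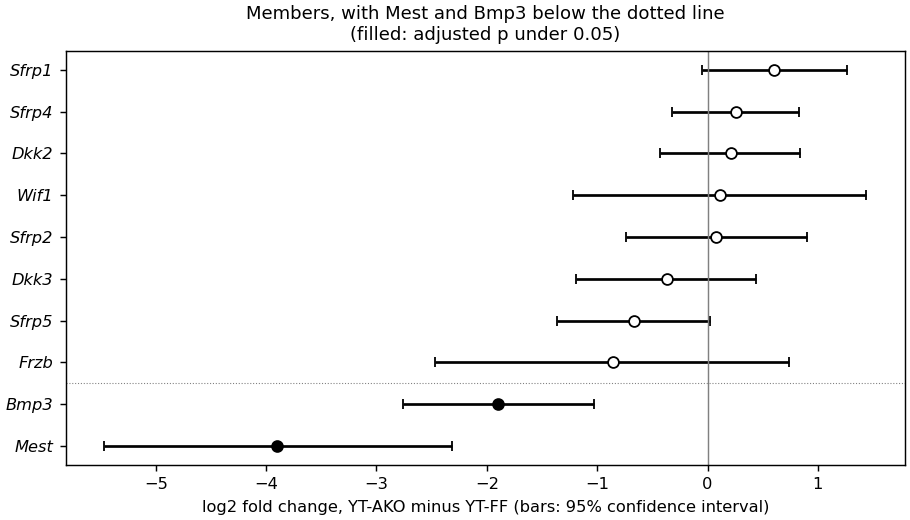
Log2 fold change of YT-AKO against YT-FF (x axis) with its 95% interval for the 8 antagonists and, below the dotted line, Mest and Bmp3 (n = 3 libraries each; filled points have an edgeR adjusted p under 0.05). The intervals of all 8 antagonists reach 0, while those of Mest (-5.47 to -2.32) and Bmp3 (-2.76 to -1.03) do not.

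In levels per length, the order by the mean TPM over 6 libraries was Sfrp2, Sfrp5, Sfrp4, Sfrp1, Dkk2, Dkk3, Wif1 and Frzb. Sfrp2 was at 60.2 ± 11.1 TPM in YT-FF and 43.2 ± 25.6 TPM in YT-AKO, and Frzb at 1.43 ± 0.548 and 0.537 ± 0.578 TPM (SD, n = 3 each). Sfrp2 was above Sfrp5 in all 6 libraries. In YT-FF, Sfrp5 (23.0 to 37.7 TPM) lay above Sfrp4 (10.2 to 20.7 TPM) throughout. In YT-AKO these neighbors overlapped, at 10.5 to 11.4 TPM for Sfrp5 and 8.16 to 12.2 TPM for Sfrp4, and Sfrp5 was the higher in 1 of 3 libraries. The ranges of Sfrp1 and Dkk2 overlapped in YT-FF, those of Dkk3 and Wif1 in YT-AKO, and those of Wif1 and Frzb in both groups. Within single libraries, Sfrp1 was above Dkk2 in 2 of 3 YT-FF libraries, Dkk3 above Wif1 in 3 of 3 YT-AKO libraries, and Wif1 above Frzb in 2 of 3 YT-FF and 3 of 3 YT-AKO libraries.

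**Figure D3:**
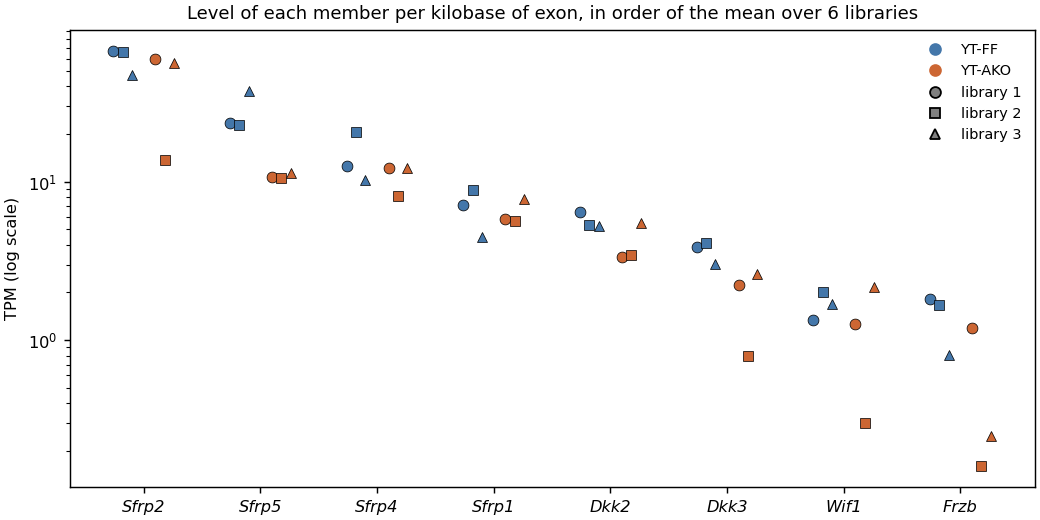
TPM (y axis, log scale) of the 8 antagonists in each library, in the order of the mean over 6 libraries, with the 3 YT-FF and 3 YT-AKO libraries as separate points. Sfrp2 leads in all 6 libraries, and Wif1 and Frzb lie at about 2 TPM or lower.

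Sfrp2 alone made up 54.2%, 50.2% and 42.8% of the summed TPM of the 8 members in YT-FF and 61.7%, 32.1% and 57.3% in YT-AKO. The sum was 111 to 132 TPM in YT-FF, and 96.4, 42.7 and 98.4 TPM in YT-AKO libraries 1, 2 and 3. The share of Sfrp5 was 19.0%, 17.5% and 34.1% in YT-FF and 11.2%, 24.6% and 11.6% in YT-AKO. The Sfrp5 share of library 2 thus stood inside the YT-FF range, in the library whose Sfrp2 was lowest.

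Sfrp5 was next set beside the other genes of fat expansion. Mest (chr6:30723547-30748465), an imprinted gene whose level marks the growth of fat, was called lower in YT-AKO, at 26.3, 49.3 and 80.1 CPM in YT-FF and 5.06, 0.708 and 4.67 CPM in YT-AKO (log2 fold change -3.90, SE 0.681, adjusted p = 0.0184). Bmp3 (chr5:98854415-98884396), a ligand of the BMP family, was also called lower, at 31.1, 28.8 and 64.7 against 9.83, 8.37 and 15.2 CPM (-1.90, SE 0.374, adjusted p = 0.0207). Both lost the call without YT-FF library 1 (adjusted p = 0.110 each) or library 2 (0.111 each), where 0 and 2 genes in all were called. Of the exon bases of Mest, 23.1% are shared with Copg2. Sfrp5, Mest and Bmp3 all had their highest level in YT-FF library 3.

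A ratio of counts within a library does not depend on the scaling between libraries, though the trend with gene length still enters it. The ratio of Sfrp5 to Mest was 0.440, 0.225 and 0.248 in YT-FF and 1.46, 16.1 and 1.71 in YT-AKO. Each YT-AKO library was above each YT-FF library, and the mean log2 ratio was 3.56 higher (two-sided exact permutation p = 0.1, the smallest that 3 against 3 allows, adjusted p = 0.225 over 9 ratios). The ratio to Bmp3 was 0.373, 0.384 and 0.307 against 0.751, 1.36 and 0.523, higher by 1.20 on the log2 scale with the same exact p values. In these libraries the fold difference between the groups was thus larger for Mest and Bmp3 than for Sfrp5. The gap to Bmp3, whose exons are longer (7398 against 1900 bases), shrank with the gene length correction: the fitted log2 fold changes were then -1.61 for Bmp3 and -1.0 for Sfrp5, 0.61 apart, against 1.23 in the main fit. For Mest the gap was 2.88 with the correction and 3.23 without it. Library 2 of YT-AKO, with 12 counts of Mest, gave the ratio of 16.1.

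Against other antagonists, the ratio of Sfrp5 to Sfrp1 was 1.42, 1.12 and 3.64 in YT-FF and 0.809, 0.811 and 0.634 in YT-AKO, with no overlap and a mean log2 difference of -1.27. The ratio to Dkk2 was 1.86, 2.21 and 3.68 against 1.65, 1.56 and 1.07, also with no overlap (-0.82). Both had the exact permutation p of 0.1 and the adjusted p of 0.225. The ratios to the other 5 members overlapped between the groups. Of all tested genes with a count in every library, 40.5% gave a ratio with Sfrp5 that did not overlap between the groups.

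**Figure D4:**
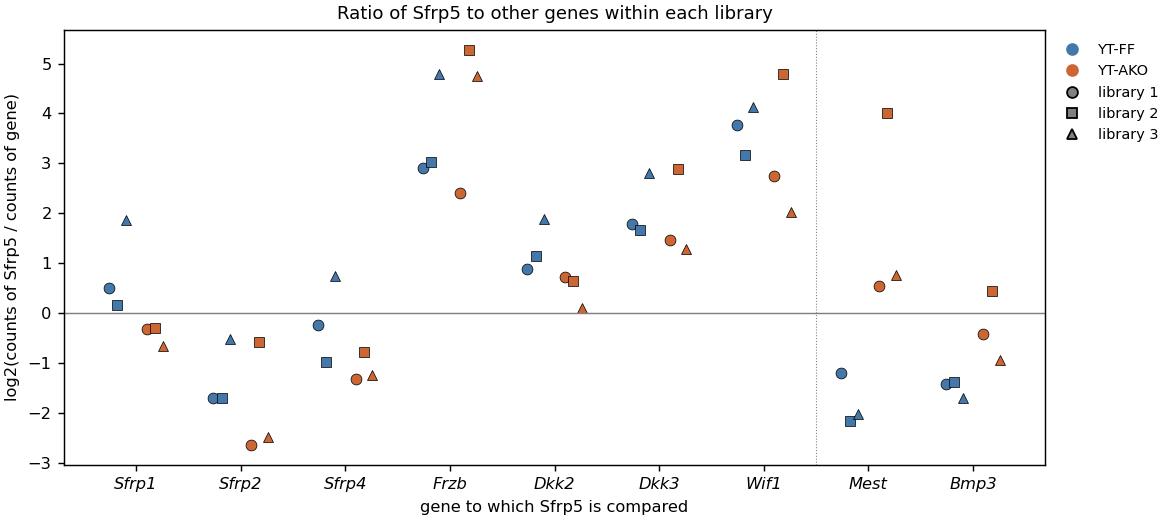
Ratio of the Sfrp5 count to the count of another gene within each library (y axis, log scale), for the 7 other antagonists, Mest and Bmp3, each point 1 library of YT-FF or YT-AKO (n = 3 each). The ratios to Mest and Bmp3 are higher in all YT-AKO libraries, and those to Sfrp1 and Dkk2 lower.

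For each member, the genes most alike over the 6 libraries were ranked by Pearson's r of log2 CPM among about 11865 tested genes with a mean of at least 5 CPM. These values describe 6 points, which share depth and scaling. Sfrp5 was most like Tfpi (r = 0.981), Cd1d1 (0.965) and Matn2 (0.965), with log2 fold changes of -0.21, -0.39 and -0.58 that did not pass. Sfrp2 was most like Ppargc1a (0.997), Kat2a (0.990) and Dalrd3 (0.985), and Sfrp1 was most like Sirpa (0.988), Tmem140 (0.970) and Wdr91 (0.970). For Sfrp4 they were Srgap1 (0.980), Eya2 (0.976) and Ppp1ccb (0.960), and for Dkk2 they were Tab1 (0.995), Faap100 (0.963) and Exo5 (0.956). Among the low members, Frzb was most like Erich1 (0.994), Bend4 (0.991) and Cd80 (0.987). Dkk3 was most like Nynrin (0.997), Card10 (0.997) and R3hdm2 (0.995), and Wif1 most like Ebf2 (0.995), Pdp1 (0.992) and Rrn3 (0.988). None of these 24 genes was called between the groups, where 21.6% of all tested genes were. They were picked for likeness to members that were not called, so this follows largely from the choice. The highest of about 11865 values of r over 6 points are also high by selection.

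Beyond the members, 80 genes of the Wnt pathway were listed by role, of which 59 were tested. Of these 59, 6 were called (10.2%, against 21.6% of all tested genes), with 1 higher and 5 lower in YT-AKO. The higher one was Igfbp4 and the lower ones were Apcdd1, Znrf3, Lgr4, Fzd10 and Apc. The median log2 fold change of the 59 was -0.20, beside -0.02 over all tested genes. DESeq2 called 12 of 62 (19.4%, against 26.8% of all genes). All 6 lost the call without YT-FF library 1 or library 2 (adjusted p of 0.110 to 0.160). Without YT-FF library 3, all but Lgr4 lost it (0.0532 to 0.0678), as did Igfbp4 (0.0622) and Fzd10 (0.0705) without YT-AKO library 3, and Fzd10 (0.0546) without YT-AKO library 1.

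Among 9 other secreted inhibitors, 4 were tested, and Dkk1, Dkk4 and Cer1 had no count in any library. Igfbp4, an IGF-binding protein that can also block Wnt receptors, was at 554, 530 and 643 CPM in YT-FF and 872, 1020 and 972 CPM in YT-AKO (0.73, SE 0.180, adjusted p = 0.0316). In TPM its groups overlapped, at 494 ± 27.5 and 518 ± 102 (SD, n = 3 each), and with library totals alone it did not pass (0.40, adjusted p = 0.111). Draxin, an axon guidance protein that binds Lrp6, was at 3.03, 2.72 and 2.52 against 1.05, 2.01 and 1.24 CPM and did not pass (-0.94, adjusted p = 0.0947), except in 3 alternatives, such as without YT-AKO library 2 (-1.27, adjusted p = 0.0243). Dkkl1 (0.23) and Sostdc1 (-0.14) did not pass either.

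All 6 inhibitors bound to the membrane were tested, and 2 were called lower, as were 9.01% of all tested genes. Apcdd1, which binds Wnt and Lrp5, was at 112, 106 and 175 CPM in YT-FF and 37.6, 50.8 and 68.2 CPM in YT-AKO (-1.33, SE 0.281, adjusted p = 0.0235). Znrf3, a ubiquitin ligase that removes Frizzled receptors from the surface, was at 17.2, 18.3 and 16.5 against 10.1, 8.79 and 10.7 CPM (-0.82, SE 0.178, adjusted p = 0.0246). The groups did not overlap in either gene, nor in 51.5% of all tested genes in TMM-scaled CPM. Neither passed after the gene length correction (-0.80 and -0.48, adjusted p = 0.110 and 0.0790). Kremen1, the receptor that Dickkopf proteins need for full action, had a change of -0.40 and did not pass (adjusted p = 0.176). Kremen2 (0.74), Rnf43 (-0.48) and Trabd2b (0.23) did not pass.

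Of 19 Wnt ligands, 9 were tested and none was called, against 21.6% of all tested genes. The changes ranged from -2.04 for Wnt2b to 1.05 for Wnt6. Wnt2b (SE 0.889) had only 11, 0 and 13 counts in YT-AKO, and Wnt6 was at 0.43 without YT-AKO library 2. Wnt5a, a ligand of the branch without beta-catenin, was at 22.7, 27.2 and 27.0 CPM in YT-FF and 15.5, 14.2 and 24.1 CPM in YT-AKO (-0.52, adjusted p = 0.138), and it passed without YT-AKO library 3 (-0.78, adjusted p = 0.0460). Wnt11, Wnt5b and Wnt2 had changes of 0.35, 0.57 and 0.57. None of 4 tested genes for Wnt release and R-spondins passed, with Wls, the carrier of Wnt proteins to the surface, at 0.01, Porcn at 0.28, Rspo1 at -0.06 and Rspo3 at 0.79.

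Of 19 receptor genes, 16 were tested, and 2 were called lower, where 9.01% of all tested genes were. Lgr4, a receptor of R-spondins, was at 37.5, 35.9 and 40.1 CPM in YT-FF and 19.7, 15.1 and 21.5 CPM in YT-AKO (-1.01, SE 0.179, adjusted p = 0.0185). Fzd10 was at 3.96, 3.38 and 2.06 against 1.34, 0.885 and 1.24 CPM (-1.44, SE 0.388, adjusted p = 0.0384). The co-receptor Lrp6 (-0.61, adjusted p = 0.0597) and the receptor Fzd4 (-0.86, adjusted p = 0.0648) did not pass, but Lrp6 passed in 4 of 18 alternatives and Fzd4 in 5, DESeq2 and library totals alone among them in both, and both passed without YT-AKO library 2 (-0.44 and -0.61, adjusted p = 0.0234 and 0.0285). Ryk had a change of 0.42 and Ptk7 of -0.93, and neither passed.

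In the beta-catenin cascade, 1 of 12 genes was called, against 21.6% of all tested genes. It was the scaffold Apc (-0.81, SE 0.198, adjusted p = 0.0312), which was at -0.23 after the gene length correction (adjusted p = 0.272). The kinase gene Gsk3b was at -0.50 (adjusted p = 0.0542), Btrc at -0.53, Dvl3 at -0.65, Csnk1a1 at -0.19 and Ctnnb1, the gene of beta-catenin, at -0.46, and none passed. Gsk3b passed in 6 of 18 alternatives, DESeq2 (adjusted p = 0.0412) and the fit without YT-AKO library 2 (-0.41, adjusted p = 0.0361) among them, and Btrc with library totals alone (-0.86, adjusted p = 0.0354). Ctnnb1 had 282, 283 and 290 CPM in YT-FF and 281, 80.4 and 259 CPM in YT-AKO, so that its low value was in library 2 alone. Of 9 target genes, 8 were tested and none passed in the main fit. The 6 with the smallest p were all below 0, from -1.06 for Ccnd1 (adjusted p = 0.0673) and -0.73 for Tcf7 (0.0601) to -0.33 for Lef1. The other 2, Bambi (0.21) and Tnfrsf19 (0.11), were above 0. Tcf7 passed in 7 of 18 alternatives and Ccnd1 in 6, with DESeq2 (adjusted p = 0.0289 and 0.0172) and without YT-AKO library 2 (0.0188 and 0.0134) in both. Lef1 passed without that library alone (-0.70, adjusted p = 0.0222). Of the exon bases of Ccnd1, 23.4% are shared with LTO1, of Lef1 13.7% with Gm43352, and of Ctnnb1 15.1% with Mir7090 and Ulk4. Axin2, the usual readout of the pathway, was at 24.0, 25.8 and 17.6 CPM in YT-FF and 13.9, 10.1 and 22.0 CPM in YT-AKO (-0.55, adjusted p = 0.204), with overlapping groups.

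**Figure D5:**
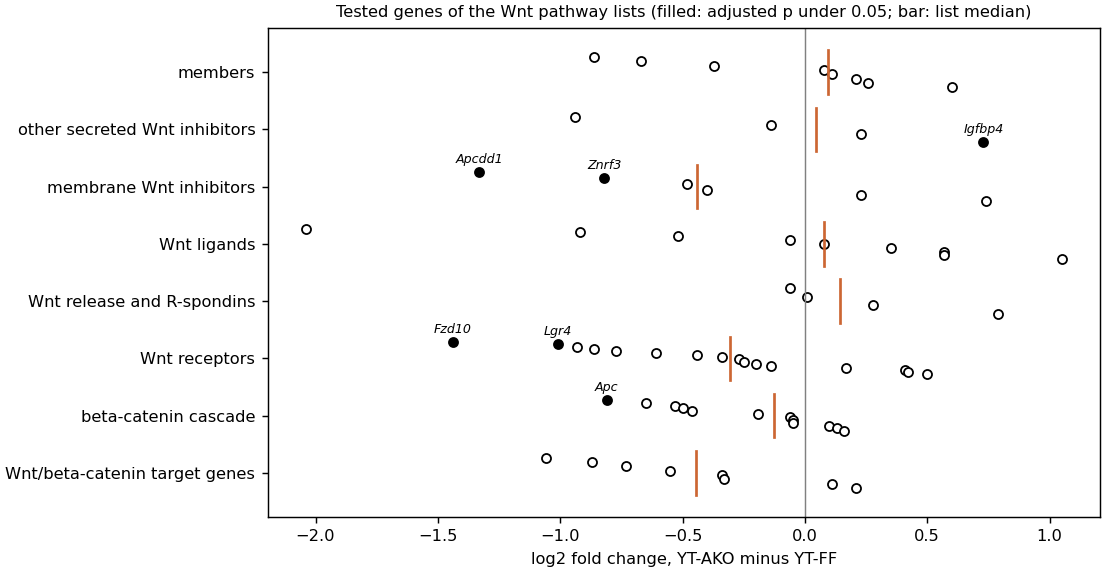
Log2 fold change of YT-AKO against YT-FF (x axis) of each tested gene of the members and of 7 Wnt pathway lists (rows), with a bar at each list's median (filled points have an edgeR adjusted p under 0.05 and are named). The 6 called genes are Igfbp4 at 0.73 and, below 0, Apcdd1, Znrf3, Fzd10, Lgr4 and Apc.

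Markers of other cells were read beside these results. The 6 skeletal muscle markers summed to 3980 TPM in YT-AKO library 1 and to 205 to 684 TPM in the other 5 libraries. The 5 mesothelial markers summed to 0.637 to 1.56 TPM, with Upk3b at 0 throughout, and the epithelial Krt5 was at 0 in all libraries. The summed ranges in YT-FF and YT-AKO were 382 to 402 and 176 to 296 TPM for mural cell markers, 274 to 382 and 160 to 187 TPM for Schwann cell markers, and 24.3 to 34.2 and 11.1 to 21.1 TPM for brown depot markers, which did not overlap. The endothelial (514 to 599 and 415 to 679 TPM), macrophage (287 to 396 and 153 to 328 TPM), T cell (306 to 494 and 213 to 377 TPM) and epithelial (5.01 to 6.62 and 2.74 to 5.83 TPM) markers overlapped. No gene of the mural, Schwann or brown depot lists was called, against 21.6% of all tested genes. In TMM-scaled CPM the groups overlapped in 4 of 6, 5 of 5 and 2 of 2 of their tested genes. On that scale 51.5% of all tested genes did not overlap. Of all tested genes, 54.5% had each YT-AKO library below each YT-FF library in TPM. The brown depot gene Zic1 was at 0 throughout. The part of these markers in the antagonists' values was not tested.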

How the data were processed

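Bulk scWAT RNA-seq of 3 mice labelled WT (YT-FF) and 3 labelled YT-AKO was used. The authors mapped reads to mm10 with HISAT2 and deposited raw counts per gene from featureCounts 2.0.1 with GENCODE vM25, summed over exons without strand. Gene symbols came from a RefSeq table by Ensembl ID (55141 of 55401 matched). Counts were tested with edgeR 4.0.16 in R 4.3.3 (TMM, filterByExpr with a minimum of 10 counts and 15 in total, quasi-likelihood test, Benjamini-Hochberg over 16807 genes, threshold 0.05). DESeq2 1.42.0 and limma 3.58.1 voom were alternatives, with other scalings and filters, a replicate block, a correction for gene length (spline with 6 degrees of freedom per library) and each library left out. TPM used the exon lengths in the files. The biological coefficient of variation was 0.288. Scripts were tested on simulated data. The members and lists were chosen with earlier results of these data known. Named were all members, Yap1, Wwtr1, Mest and Bmp3, and up to 6 genes per list by smallest p. The 3 genes most like each member by r were also named. Lists of cell markers were given whether or not they moved with a member. Antagonist proteins' sequences were not analysed here. One list of cell markers is not reported here.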

Additional observations from a re-analysis of the deposited data

How the results depend on the processing

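The count of called genes, 3636, was 33 with a replicate block and 81 with the block and a gene length correction, and 0 to 5349 with 1 library left out. It was 0 without YT-FF library 1 (4665 genes at an unadjusted p under 0.05), 2 without YT-FF library 2 and 1232 without YT-FF library 3. With the block, 72.7% of called genes were higher, against 58.3% without it. Same-numbered libraries deviated from their group means with correlations of 0.126, -0.118 and -0.0893, and not every library was closest to its own number. Correlations this small, from 3 libraries per group, cannot settle whether the numbers pair the libraries. The members called, 0, were 1 with library totals alone, with the length correction and without YT-AKO library 2 (0 to 1 over the libraries left out), and 1 without that library and with the length correction, an alternative chosen after seeing the data. It was Sfrp5 each time, at -1.01, -1.0, -0.88 and -1.11, and from -0.88 to -0.34 over the libraries left out. The listed Wnt genes called, 6, were 12 with DESeq2, 11 with totals, 10 with no filter on low counts, 0 with the block, 0 with the block and the length correction, 10 with that added alternative and 0 to 13 with 1 library left out.

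The following changed sign. With totals alone, Sfrp2 was -0.21, Sfrp4 -0.08, Dkk2 -0.13, Wif1 -0.17, Dkkl1 -0.15, Trabd2b -0.10, Porcn -0.04 and Wls -0.29, while the median of all genes moved from -0.02 to -0.34. With the length correction, Sfrp2 was -0.18, Wif1 -0.10, Dkkl1 -0.19, Btrc 0.09, Csnk1a1 0.27 and Lef1 0.12. With the replicate block, Sfrp2 was -0.03 and Wif1 -0.06, and with the block and the length correction Sfrp2 was -0.31, Wif1 -0.28, Dkkl1 -0.06, Btrc 0.07, Csnk1a1 0.27 and Lef1 0.00. With limma-voom, Sfrp2 was -0.05 and Wif1 -0.11. Wls was -0.03 with upper-quartile factors and -0.02 with 10 counts required in every library. With the added alternative, Dkkl1 was -0.46, Kremen1 0.01, Csnk1a1 0.18 and Ctnnb1 0.02. With 1 library left out, the ranges were -0.14 to 0.41 for Sfrp2, -0.49 to 0.51 for Wif1, -0.19 to 0.78 for Dkkl1, -0.42 to 0.17 for Sostdc1, -0.52 to 0.18 for Rspo1 and -0.05 to 0.15 for Wls. The order by level had 2 members out of place, Sfrp4 and Sfrp5, in CPM not divided by length. The cause of these changes was not tested. Over all values, counts and orders, 825 of 994 comparisons with an alternative kept direction and side of the threshold (for counts, within 1.5 times). Frzb and Wif1 had 5 to 36 counts a library and biological coefficients of variation of 0.548 and 0.457.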
